A study of Mus musculus with 12 samples.

Results

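The 10 genes described here are 8 annexin genes (Anxa1, Anxa2, Anxa3, Anxa4, Anxa5, Anxa6, Anxa7 and Anxa11) and 2 S100 genes whose proteins bind annexins (S100a10 and S100a6), out of 24480 genes measured in mouse embryonic stem cells (ESCs). They were chosen because Anxa2 and Anxa3 were called higher both after knockdown (KD) and after overexpression (OE) of YAP, and the question asked of the other 8 genes was whether they shared that pattern. The fold changes of Anxa2 and Anxa3 are therefore descriptions and carry no test. All 10 genes were found in the tables, and all 10 passed the filter on low counts in every comparison.

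Annexins are cytosolic proteins that bind acidic phospholipids when calcium rises, and so attach to the inner face of the plasma membrane and to vesicles. They take part in membrane repair, endocytosis and exocytosis and in linking membranes to the actin cytoskeleton. S100 proteins are small calcium-binding proteins, and several of them bind the amino-terminal tail of a particular annexin: S100A10 (p11) joins annexin A2 in a complex at the plasma membrane, S100A11 binds annexin A1, and S100A6 (calcyclin) binds annexin A2 and annexin A11. YAP is a transcriptional coactivator that the Hippo pathway keeps out of the nucleus, and it reaches DNA mainly through TEAD factors.

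RNA was sequenced from E14Tg2a cells, a feeder-free mouse ESC line labelled pluripotent. In the KD experiment the cells were transiently transfected with siRNAs against mouse YAP (YAP KD) or with scrambled siRNA (CTR KD), and RNA was taken when, per the study, YAP was at its lowest. In the OE experiment transfection was transient too, with a plasmid carrying mouse YAP under the CAG promoter, which is active in most cell types (YAP OE), or with a control plasmid (CTR OE). The labels say that the control plasmid encodes GFP, and the study's text calls it an empty vector. Each group had 3 libraries from independent experiments, 12 in all, with totals from 42926256 to 57240703 expected counts per library. Transfected cells were not separated from untransfected ones, so each library averages over both, and in such bulk samples fewer cells of a type and less RNA per cell cannot be told apart.

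The targeted gene followed the labels. Yap1 stood at 116, 135 and 125 normalised CPM (counts scaled to a common library total) in the CTR KD libraries and at 58.5, 54.9 and 56.6 CPM in the YAP KD libraries. It stood at 134, 130 and 134 CPM in the CTR OE libraries and at 277, 256 and 244 CPM in the YAP OE libraries, where counts of the endogenous gene and of the plasmid's coding sequence are summed. Of 8 markers of pluripotent ESCs, 0 were called by edgeR in the 3 group comparisons or in the test between the experiments (4, 1, 1 and 3 at an unadjusted p under 0.05 for KD, OE, the controls and the difference). DESeq2 called 2 and limma-voom 1 of them for the difference, and both called 0 in the other 3 comparisons. No marker list for other cell types was at 0 as a whole. Of the trophoblast markers, Cdx2, Elf5 and Hand1 were under 1 CPM in all 12 libraries. So were Gata6, Sox17, Sox7 and Foxa2 (primitive endoderm and its derivatives) and Col1a1, Col1a2, Col3a1 and Postn (mesenchymal cells). All other markers of these lists passed 1 CPM in at least 1 library. Among them, Gata3 reached at most 1.21 CPM, Eomes 1.99 CPM, Pdgfra 1.69 CPM, Gata4 2.74 CPM and Dab2 4.32 CPM. Others reached more: Krt7 8.78 CPM, Acta2 14.8 CPM, Tead4 20.8 CPM, Sparc 69.3 CPM, Vim 77.9 CPM and Tfap2c 84.4 CPM.

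The Anxa2 promoter is shown first, because Anxa2 had the widest relative range of levels among the members, next to the promoters of Anxa1 and S100a6, the members that were higher in CTR OE than in CTR KD beside Anxa2 and Anxa3. The windows hold the 250 bases before the annotated start in RefSeq's table for GRCm38.p6, 5′ to 3′ on the strand of the gene. Capitals mark the letters of the TEAD motif, CATTCC or its reverse complement GGAATG, and of the AP-1 motif, TGANTCA on either strand. AP-1 was searched because it is often found beside TEAD at YAP-bound regions. The 2 motifs share no position in these windows.
Anxa2, chr9:69453433-69453682, plus strand: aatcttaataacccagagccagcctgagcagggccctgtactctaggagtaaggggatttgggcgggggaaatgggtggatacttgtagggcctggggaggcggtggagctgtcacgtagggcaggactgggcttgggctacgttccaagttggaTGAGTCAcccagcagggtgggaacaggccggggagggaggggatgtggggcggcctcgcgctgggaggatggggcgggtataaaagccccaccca
Anxa1, chr19:20390672-20390921, minus strand: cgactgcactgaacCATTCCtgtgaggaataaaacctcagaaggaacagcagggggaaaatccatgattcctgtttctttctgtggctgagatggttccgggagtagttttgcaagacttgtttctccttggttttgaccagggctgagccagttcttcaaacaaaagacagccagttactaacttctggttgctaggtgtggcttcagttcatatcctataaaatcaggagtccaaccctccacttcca
S100a6, chr3:90612644-90612893, plus strand: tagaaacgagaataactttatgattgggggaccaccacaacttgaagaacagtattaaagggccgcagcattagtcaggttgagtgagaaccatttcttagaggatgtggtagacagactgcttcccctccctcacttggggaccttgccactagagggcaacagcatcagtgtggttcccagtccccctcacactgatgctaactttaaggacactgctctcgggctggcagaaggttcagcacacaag
Of the 10 members, 7 were in the table, with 9 windows in all, since Anxa4 and Anxa7 each have 2 annotated starts. Anxa3, Anxa6 and S100a10 were not matched. The TEAD letters were in 1 of the 9 windows, that of Anxa1, with the first base 236 bases before the start, against 12.6% of all 32851 windows of this length in the table. The AP-1 letters were in 1 of the 9 windows, that of Anxa2, with the first base 95 bases before the start, against 6.75% of all windows. These matches are a description of the letters and of nothing bound there.

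Anxa2 (chr9:69453683-69491792, the whole gene in RefSeq's GRCm38.p6 annotation, as for each member) was lowest in CTR KD and highest in YAP OE, and its 4 groups did not overlap. The CTR KD libraries held 9.09, 8.98 and 9.36 CPM and the YAP KD libraries 11.8, 13.3 and 11.5 CPM. The CTR OE libraries held 14.7, 16.1 and 15.8 CPM and the YAP OE libraries 26.2, 28.5 and 29.8 CPM. Every YAP KD library was thus above every CTR KD library but below every CTR OE library. The log2 fold change was 0.42 (SE 0.0714) after YAP KD, an increase of 33.5%, and 0.86 (SE 0.0577) after YAP OE, an increase of 81.3%. The log2 difference between the 2 control groups, CTR OE against CTR KD, was 0.76 (SE 0.0683).

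Anxa3 (chr5:96793385-96845968), an annexin first known as an inhibitor of phospholipase A2, was at lower levels with the groups in the same order. The CTR KD libraries held 6.63, 6.19 and 6.52 CPM and the YAP KD libraries 7.59, 7.78 and 8.40 CPM. The CTR OE libraries held 10.8, 11.5 and 10.2 CPM and the YAP OE libraries 14.6, 15.3 and 14.9 CPM. The groups did not overlap. The log2 fold change was 0.30 (SE 0.0729) after YAP KD, an increase of 23.5%, and 0.46 (SE 0.0604) after YAP OE, an increase of 37.8%, and the log2 difference of CTR OE from CTR KD was 0.75 (SE 0.0648). The KD call that put Anxa3 in the choice was near the threshold: it was lost when any 1 of the 6 libraries was left out and kept under 7 of 11 other settings, whereas that of Anxa2 was kept in all 6 and under 9 of 11.

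In all, 17 of 14521 genes tested in both experiments (0.117%) were called higher in both by edgeR's quasi-likelihood test at an adjusted p under 0.05, and this rule chose Anxa2 and Anxa3. Anxa3 was the member just inside it. Just outside it stood Anxa5, with log2 fold changes of 0.15 and 0.20. The same call rule counted 4 of the 10 members as higher after YAP KD, Anxa2, Anxa3, Anxa6 and S100a6, against 2.71% of 14606 genes (5.49% in either direction), and 0 as lower, against 2.78%. After YAP OE it counted 2 of the 10, Anxa2 and Anxa3, as higher, against 1.66% of 14804 genes (2.13% in either direction), and 0 as lower, against 0.473%. Since Anxa2 and Anxa3 were chosen by these calls, only the other 8 members bear on the question. Of these, 2 were called after YAP KD (5 at an unadjusted p under 0.05) and 0 after YAP OE (3 at an unadjusted p under 0.05), and DESeq2 and limma-voom also called 0 of them after YAP OE. That none of the 8 was called higher in both experiments follows from the choice and is not a result. None was called lower in both, against 0.0138% of genes, or higher after YAP KD and lower after YAP OE, against 0.152%. At such small shares 0 of 8 does not set these members apart from other genes. Their median log2 fold change was 0.060 after YAP KD and 0.060 after YAP OE, against 0.0058 and -0.0025 over all genes tested. Read by library, 3 of the 8 (Anxa5, Anxa6 and S100a6) had all YAP KD libraries above all CTR KD libraries, against 12.8% of genes, and 1 (Anxa4) had them all below, against 12.9%. In the OE experiment 3 of the 8 (Anxa4, Anxa5 and S100a10) had all YAP OE libraries above all CTR OE libraries, against 10.3%, and 0 had them all below, against 7.9%. For the change after YAP OE minus the change after YAP KD, 1 of the 8 was called higher (Anxa4) and 1 lower (Anxa6), against 5.24% and 3.56% of 15049 genes (8.8% in either direction), with 4 of the 8 at an unadjusted p under 0.05.

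**Figure D1:**
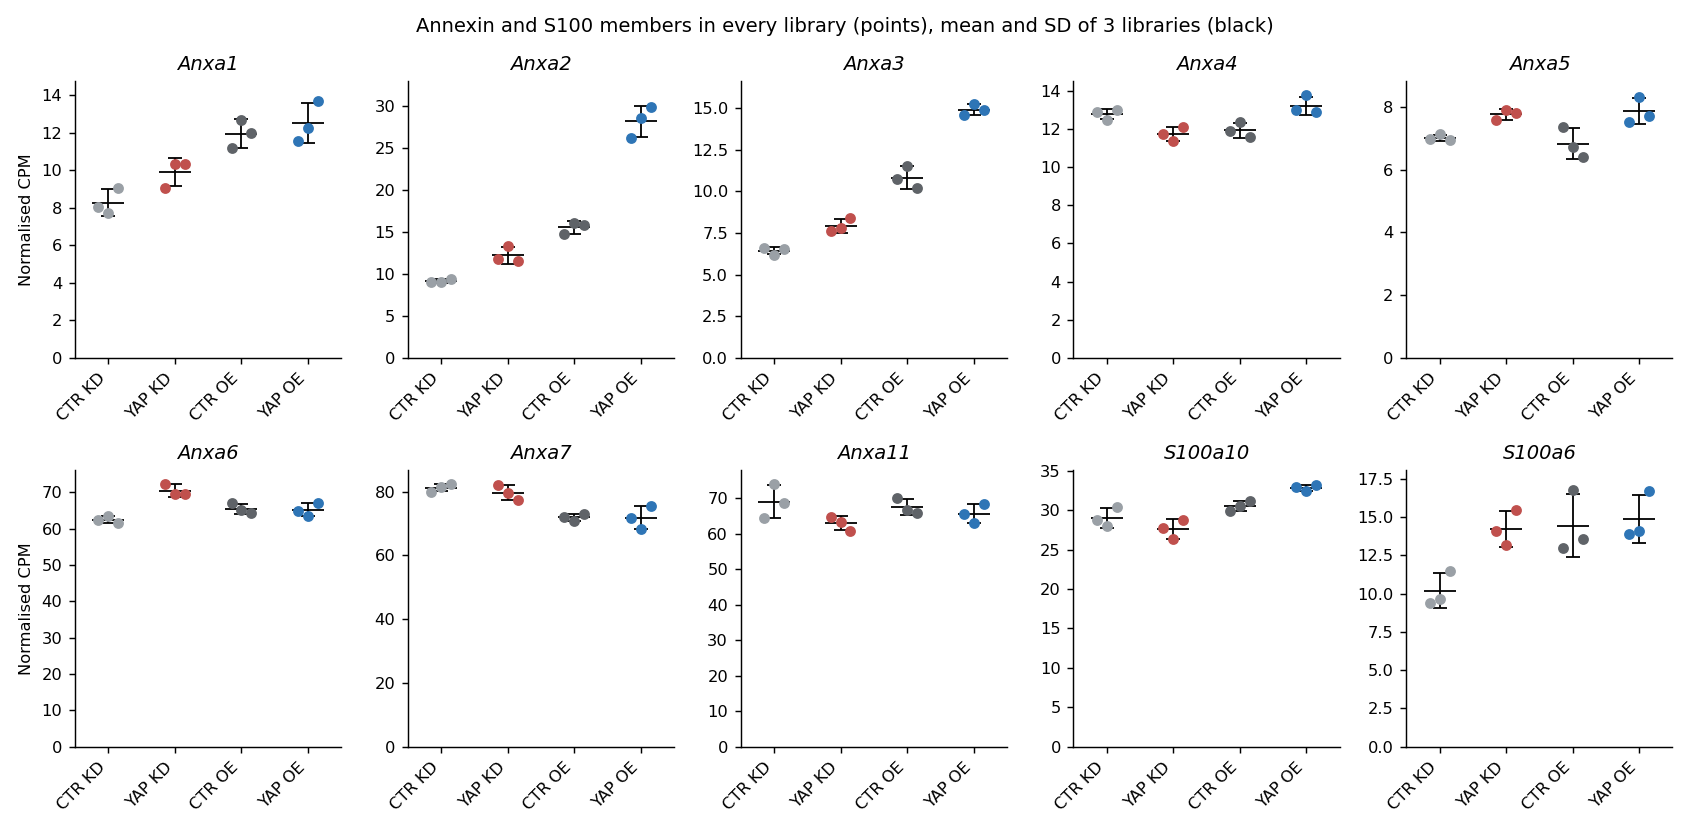
Normalised CPM (vertical axes, each from 0) of the 10 members in the 4 groups, with a point for each of the 12 libraries and the mean and SD of 3 libraries in black. Anxa2 and Anxa3 climb from CTR KD to YAP OE without overlap between groups, S100a6 is low in CTR KD alone, and Anxa7, Anxa11 and S100a10 stay within narrow ranges.

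S100a10 (chr3:93555117-93564645), the partner of annexin A2, was not called in either experiment. In CTR KD the libraries held 28.7, 27.9 and 30.4 CPM and the YAP KD libraries 27.7, 26.3 and 28.8 CPM. In CTR OE the libraries held 29.9, 30.5 and 31.1 CPM and the YAP OE libraries 32.9, 32.4 and 33.1 CPM. The KD groups overlapped, and the YAP OE libraries were all above the CTR OE libraries. The log2 fold changes were -0.069 (SE 0.0526, 95% interval -0.19 to 0.049, adjusted p = 0.538) and 0.11 (SE 0.0419, 95% interval 0.018 to 0.20, adjusted p = 0.26).

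S100a6 (chr3:90612894-90614414) was higher after YAP KD and had no detectable change after YAP OE. The CTR KD libraries held 9.39, 9.66 and 11.5 CPM and the YAP KD libraries 14.1, 13.2 and 15.4 CPM. The CTR OE libraries held 12.99, 16.8 and 13.6 CPM and the YAP OE libraries 13.9, 14.1 and 16.7 CPM. The YAP KD libraries were all above the CTR KD libraries, while the groups of the OE experiment overlapped at the level that S100a6 reached in YAP KD. The rise after YAP KD was 0.49 on the log2 scale (SE 0.0894, 40.2%, adjusted p = 0.0137, edgeR quasi-likelihood test). The call was lost without YAP KD replicate 1 (adjusted p = 0.0548) or replicate 3 (adjusted p = 0.0641) and kept without each of the other 4 libraries. The log2 fold change after YAP OE was 0.049 (SE 0.0904, 95% interval -0.14 to 0.24, adjusted p = 0.889). The difference between the 2 changes, YAP OE minus YAP KD, was -0.44 (SE 0.148) and did not pass the test (adjusted p = 0.0833), so a different response in the 2 experiments was not shown.

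Anxa1 (chr19:20373434-20390671), a glucocorticoid-induced annexin that acts on formyl peptide receptors and binds S100A11, was not called in either YAP comparison. In CTR KD the libraries held 8.05, 7.70 and 9.05 CPM and the YAP KD libraries 9.04, 10.3 and 10.3 CPM. In CTR OE the libraries held 11.2, 12.7 and 11.96 CPM and the YAP OE libraries 11.6, 12.3 and 13.7 CPM. The lowest YAP KD library was just below the highest CTR KD library, and the OE groups overlapped. The log2 fold changes were 0.27 (SE 0.0843, adjusted p = 0.11) after YAP KD and 0.071 (SE 0.0719, adjusted p = 0.753) after YAP OE.

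Anxa4 (chr6:86736840-86793634), a phospholipid-binding annexin of secretory epithelia, had opposite values in the 2 experiments, neither of them called. In CTR KD the libraries held 12.9, 12.5 and 12.996 CPM and the YAP KD libraries 11.7, 11.4 and 12.1 CPM. In CTR OE the libraries held 11.9, 12.3 and 11.6 CPM and the YAP OE libraries 12.97, 13.7 and 12.9 CPM. The YAP KD libraries lay below their controls and the YAP OE libraries above theirs, with no overlap in either experiment. The log2 fold changes were -0.12 (SE 0.0567, adjusted p = 0.284) and 0.15 (SE 0.0579, adjusted p = 0.269). Their difference, 0.27 (SE 0.0741), passed the test (adjusted p = 0.0353), with adjusted p-values from 0.034 to 0.0976 when 1 of the 12 libraries was left out and 0.0812 by DESeq2.

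Anxa5 (chr3:36448923-36475887), the annexin used as a probe for exposed phosphatidylserine, was the member outside the choice that came nearest to it. In CTR KD the libraries held 6.98, 7.13 and 6.95 CPM and the YAP KD libraries 7.57, 7.90 and 7.82 CPM. In CTR OE the libraries held 7.37, 6.71 and 6.41 CPM and the YAP OE libraries 7.53, 8.33 and 7.71 CPM. All 3 YAP libraries were above all 3 control libraries in each experiment, as for 0.84% of genes tested in both. The log2 fold changes, 0.15 (SE 0.0644, adjusted p = 0.244) after YAP KD and 0.20 (SE 0.078, adjusted p = 0.257) after YAP OE, did not pass the test. The 95% intervals were 0.0028 to 0.29 and 0.034 to 0.37.

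Anxa6 (chr11:54978953-55033471), an annexin with a duplicated core that sits on endosomes and the plasma membrane, was called after YAP KD, as S100a6 was. The CTR KD libraries held 62.3, 63.4 and 61.6 CPM and the YAP KD libraries 72.4, 69.5 and 69.4 CPM. The CTR OE libraries held 67.0, 65.0 and 64.3 CPM and the YAP OE libraries 64.9, 63.5 and 67.1 CPM. The KD groups did not overlap, and the OE groups did. Anxa6 rose by 0.18 on the log2 scale after YAP KD (SE 0.0392, 12.9%, adjusted p = 0.0318), and its log2 fold change after YAP OE was -0.0048 (SE 0.0386, adjusted p = 0.98). The difference of the changes, YAP OE minus YAP KD, was -0.18 (SE 0.0512, adjusted p = 0.0406), a call kept in 2 of 12 fits without 1 library (adjusted p from 0.0283 to 0.102). Among the 6 fits without 1 library the KD call was kept only without CTR KD replicate 2, with adjusted p-values from 0.0184 to 0.137 over the 6.

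Anxa7 (chr14:20455261-20480133) and Anxa11 (chr14:25842127-25886804), annexins with long glycine-rich amino-terminal tails that bind the calcium sensors sorcin and ALG-2, had no call after YAP KD or YAP OE. Anxa7 ranged from 80.0 to 82.2 CPM in CTR KD, from 77.2 to 81.9 CPM in YAP KD, from 70.8 to 73.1 CPM in CTR OE and from 68.2 to 75.6 CPM in YAP OE. Anxa11 ranged from 64.5 to 73.9 CPM, from 60.7 to 64.6 CPM, from 65.7 to 69.9 CPM and from 63.0 to 68.3 CPM in the same order of groups. YAP and control libraries overlapped for both genes in both experiments. The log2 fold changes of Anxa7 were -0.028 (SE 0.0398, adjusted p = 0.769) and 0.00029 (SE 0.0423, adjusted p = 0.999). Those of Anxa11 were -0.13 (SE 0.0536, adjusted p = 0.201) and -0.037 (SE 0.0419, adjusted p = 0.784).

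The 2 control groups differed from each other in several members. In the comparison of CTR OE with CTR KD, 200 of 15049 genes (1.33%) were called, 116 of them higher in CTR OE (0.771%) and 84 lower (0.558%). Beside Anxa2 and Anxa3, whose control libraries also entered the choice, 2 of the other 8 members were higher in CTR OE and 1 was lower. Anxa1 was higher by 0.53 on the log2 scale (SE 0.0832, adjusted p = 0.0038) and stayed called without each of the 6 control libraries in turn. S100a6 was higher by 0.50 (SE 0.106, adjusted p = 0.0291), with adjusted p-values from 0.0281 to 0.131 over those 6 fits and the call kept in 2 of them. Anxa7 was lower by the log2 difference -0.18 (SE 0.0406, adjusted p = 0.0485), a call that was lost in all 6 fits (adjusted p from 0.065 to 0.207). All CTR OE libraries were above all CTR KD libraries for 3 of the 8 (Anxa1, Anxa6 and S100a6), against 7.66% of genes, and below them for 2 (Anxa4 and Anxa7), against 8.66%. The control groups differ in the transfected material and in the experiment, which cannot be told apart. They are also the baselines of the YAP comparisons, so the 3 sets of fold changes are not independent of each other.

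**Figure D2:**
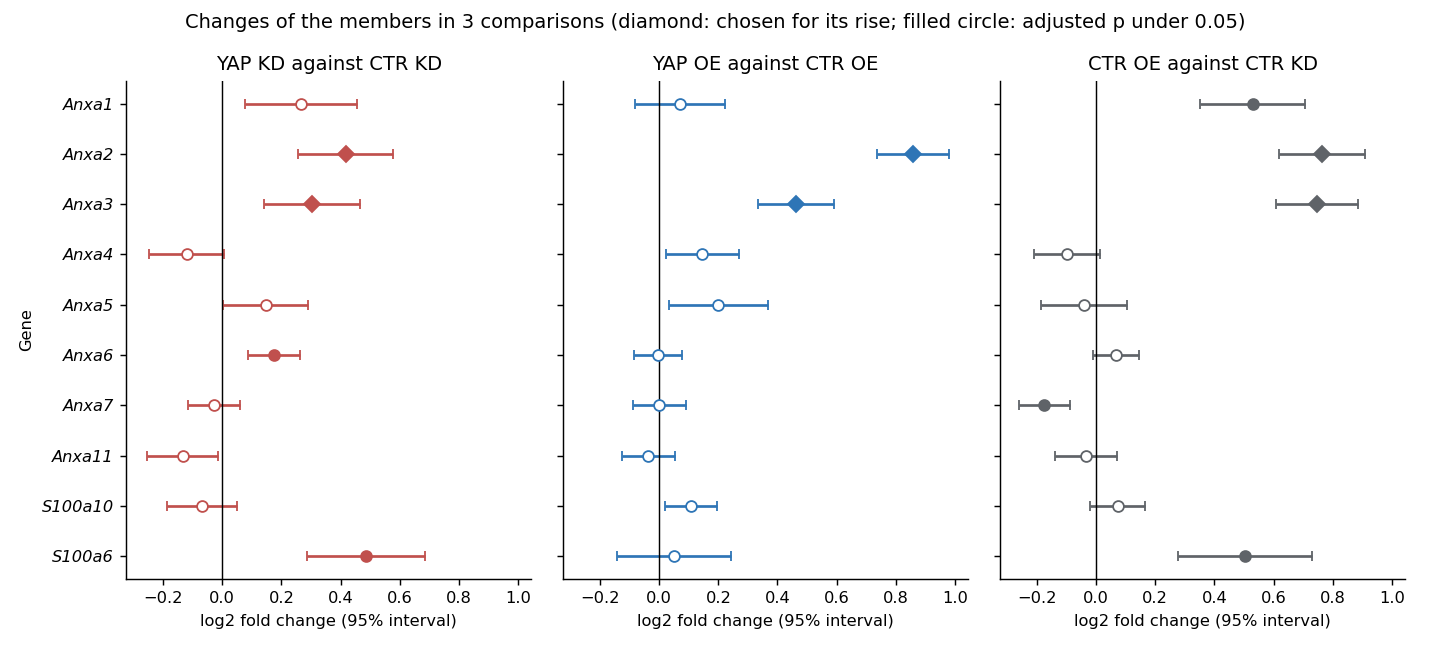
Log2 fold changes of the 10 members (horizontal axis) with 95% intervals after YAP KD, after YAP OE and between the 2 control groups; diamonds mark Anxa2 and Anxa3, which chose the set, and filled circles mark an adjusted p under 0.05. S100a6 and Anxa6 are the filled circles after YAP KD, none is filled after YAP OE, and Anxa1, Anxa7 and S100a6 are filled between the controls.

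The summed marker lists differed between the 4 groups, in an order that the lists did not share. Most of each sum came from genes present in all 12 libraries, so the sums were not read as amounts of other cell types. The part of these markers in the members' values was not tested. Among Krt7, Acta2, Tead4, Sparc, Vim and Tfap2c, only Krt7 and Acta2 had group means in the order of Anxa2. From CTR KD over YAP KD and CTR OE to YAP OE, Krt7 stood at 3.14, 4.03, 5.37 and 7.18 CPM. Acta2 stood at 7.66, 8.79, 11.2 and 12.1 CPM. YAP OE and CTR OE libraries overlapped for both genes. The 8 mesenchymal markers summed to 60.0 to 64.7 CPM in CTR KD, 83.7 to 91.3 CPM in YAP KD, 73.6 to 76.1 CPM in CTR OE and 69.4 to 77.7 CPM in YAP OE, lowest in CTR KD as S100a6 was. Most of that sum was Vim, the intermediate filament vimentin, which was called higher after YAP KD (1 of 7 tested markers). The 6 markers of simple epithelium summed to 459 to 480 CPM in CTR KD, 452 to 457 CPM in YAP KD, 514 to 533 CPM in CTR OE and 548 to 575 CPM in YAP OE, most of it Cdh1 and Epcam. Of that list, Krt8 alone was called by edgeR in both experiments. After YAP KD, Krt8 (log2 fold change 0.37, adjusted p = 0.00444) and Krt19 (0.46, adjusted p = 0.0158) were called higher. Cldn6 was called lower there (-0.34, adjusted p = 0.00681). Krt18 (0.13, adjusted p = 0.203), Cdh1 (-0.12, adjusted p = 0.107) and Epcam (-0.056, adjusted p = 0.578) had no call. After YAP OE, Krt8 (0.36, adjusted p = 0.00224) and Krt18 (0.53, adjusted p = 0.00101) were called higher. Krt19 (0.14, adjusted p = 0.567), Cldn6 (0.13), Epcam (0.040) and Cdh1 (-0.013) were not called there. Krt8, Krt18 and Krt19 were all called higher in CTR OE than in CTR KD (0.67, 0.59 and 0.70). Between the controls, 2 of 7 tested mesenchymal markers were also called higher in CTR OE (median log2 difference 0.55). Of 7 trophoblast markers tested there, 1 was called higher and 1 lower. Of 8 endoderm markers 0 were called (3 at an unadjusted p under 0.05). The 8 markers of primitive endoderm and its derivatives summed to 57.9 to 61.8 CPM, 52.9 to 59.3 CPM, 62.7 to 64.9 CPM and 75.0 to 77.6 CPM in the same order of groups, most of it Sparc. After YAP OE 2 of these 8 were called higher, Dab2 (0.63, adjusted p = 0.00645) and Sparc (0.26, adjusted p = 0.00223), while Gata4 was at -0.26 without a call, and 0 of the 7 tested were called after YAP KD (1 at an unadjusted p under 0.05; 0 by DESeq2 and 0 by limma-voom). The 8 trophoblast markers summed to 77.0 to 86.7 CPM, 96.9 to 108 CPM, 72.8 to 77.6 CPM and 70.8 to 79.8 CPM, a sum that is mostly Tfap2c. Tfap2c was called higher after YAP KD (0.47, adjusted p = 0.00217), the only call among 4 tested, and was at -0.16 after YAP OE without a call. After YAP OE Cdx2 (2.05, adjusted p = 0.00159, under 1 CPM in all libraries) and Gata3 (1.84, adjusted p = 0.000886, at most 1.21 CPM) were called higher, and the median log2 fold change of the 7 tested was 0.55.

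Levels can be compared between genes only per length, here as normalised CPM per kilobase of effective length. S100a10 was the most abundant member in every group, at 61.0 ± 2.36 CPM per kilobase in CTR KD, 58.6 ± 2.03 in YAP KD, 64.3 ± 1.03 in CTR OE and 69.4 ± 1.85 in YAP OE (SD, n = 3). Anxa11, Anxa7 and Anxa6 came next in CTR KD, at 31.1 ± 2.15, 30.2 ± 0.43 and 25.2 ± 0.393, and Anxa11 and Anxa7 overlapped there. S100a6 followed at 18.7 ± 2.01, and Anxa2, Anxa4, Anxa1, Anxa5 and Anxa3 lay between 7.62 and 4.53. In YAP OE the libraries of Anxa11, S100a6, Anxa7 and Anxa6 overlapped each with the next, at means from 29.6 to 26.3. Anxa2 reached 23.5 ± 1.495 there, below all libraries of Anxa6, and Anxa3 reached 10.5 ± 0.188 and overlapped with Anxa1 at 10.3 ± 0.896. Anxa5 was the lowest member in YAP KD, CTR OE and YAP OE, and in CTR KD its libraries overlapped with those of Anxa3.

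**Figure D3:**
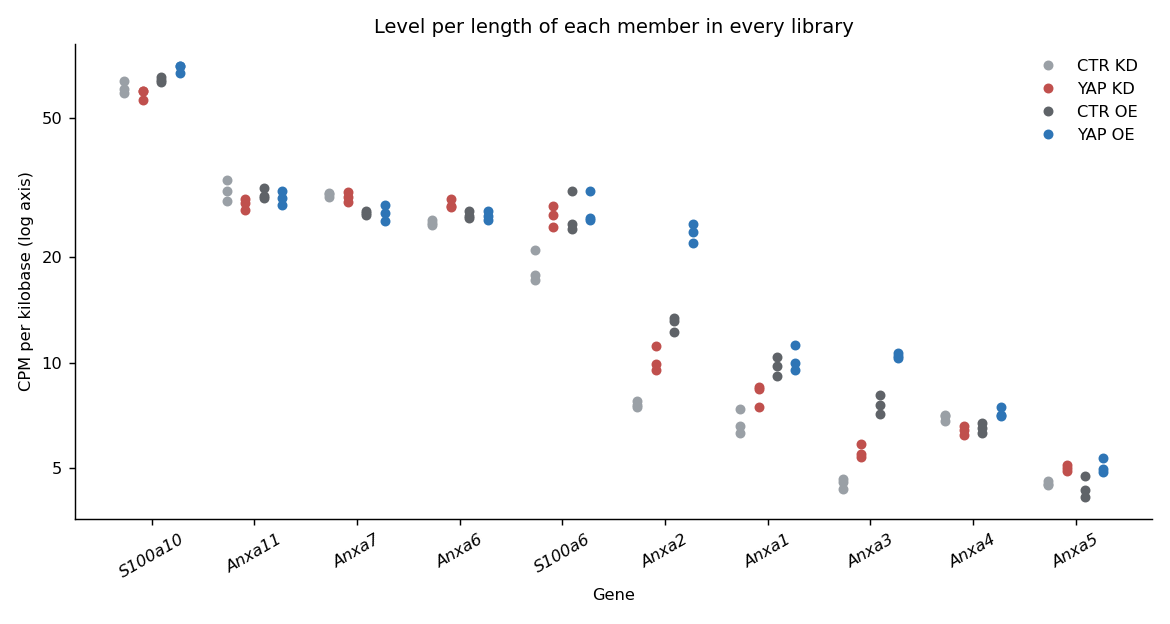
Normalised CPM per kilobase of effective length (log axis) of the 10 members, ordered by their mean over all 12 libraries, with a point per library and a colour per group. Anxa2 covers the range from 7.50 to 25.0 CPM per kilobase, while S100a10 keeps above the other members in every library.

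The ratio of S100a10 to Anxa2, computed per length in each library, was highest where Anxa2 was lowest. It was 8.0 ± 0.152 in CTR KD, 5.77 ± 0.657 in YAP KD, 4.97 ± 0.19 in CTR OE and 2.96 ± 0.215 in YAP OE (SD, n = 3). The ratio of S100a6 to Anxa2 was 2.45 ± 0.218, 2.60 ± 0.381, 2.05 ± 0.221 and 1.17 ± 0.0788 in the same order. RNA of S100a10 thus stood above that of Anxa2 in every library, and by less in YAP OE. These ratios contain the values that chose Anxa2 and were not tested.

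Other members of both families were few and mostly at the limit of detection. Of the 4 other annexin genes, Anxa8 and Anxa9 passed the filter and 0 were called in any comparison by edgeR, DESeq2 or limma-voom (0 at an unadjusted p under 0.05), and Anxa10 and Anxa13 did not pass it. Of 14 other S100 genes, 4 passed the filter: S100a1, S100a11, S100a13 and S100a16. S100a11, the partner of annexin A1, was at 11.2, 11.8 and 10.8 CPM in the CTR KD libraries and at 7.43, 8.33 and 8.27 CPM after YAP KD. It was at 9.05, 9.60 and 9.32 CPM in CTR OE and 13.6, 11.5 and 10.5 CPM in YAP OE, with no overlap in either experiment. S100a11 fell by 0.49 on the log2 scale after YAP KD (SE 0.0703, adjusted p = 0.00482) and rose by 0.35 after YAP OE (SE 0.0847, adjusted p = 0.0462), the direction of Yap1 in each. The OE call was kept in 1 of the 6 fits without a library and under 5 of 11 other settings. Limma-voom did not call S100a11 after YAP OE. S100a1 (log2 fold changes -0.50 and 0.34) and S100a13 (-0.38 and 0.28) had no call in the KD or the OE comparison, and their differences between the experiments, 0.84 (adjusted p = 0.0195) and 0.66 (adjusted p = 0.0456), passed the test. Without 1 library in turn, the call was kept in 9 of 12 fits for S100a1 (adjusted p up to 0.0558) and in 4 of 12 for S100a13 (adjusted p up to 0.107).

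The annexin A2 complex binds AHNAK, a giant scaffold protein under the plasma membrane, and recruits plasminogen and its activators. Ahnak was at 490, 412 and 499 CPM in the CTR KD libraries and at 307, 328 and 327 CPM after YAP KD. It was at 498, 556 and 550 CPM in CTR OE and 744, 724 and 735 CPM in YAP OE. The groups did not overlap within either experiment. Ahnak fell by 0.54 on the log2 scale after YAP KD (SE 0.0698, adjusted p = 0.00284) and rose by 0.46 after YAP OE (SE 0.0488, adjusted p = 0.000137). Of the 6 tested genes of the plasminogen system and Ahnak (8 in the list), 1 was called lower after YAP KD, and 2 were called higher after YAP OE, Ahnak and Plaur, the urokinase receptor (log2 fold change 0.32, SE 0.076, adjusted p = 0.038). The call of Plaur was kept in 1 of the 6 fits without a library (adjusted p up to 0.147) and lost with DESeq2 (adjusted p = 0.0624). For comparison, 80 of 14521 genes (0.551%) were called lower after YAP KD and higher after YAP OE, as Ahnak was. Anxa2 and Anxa3 could not be among them by the choice. The other 8 members were not among them, which at that share does not set them apart.

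**Figure D4:**
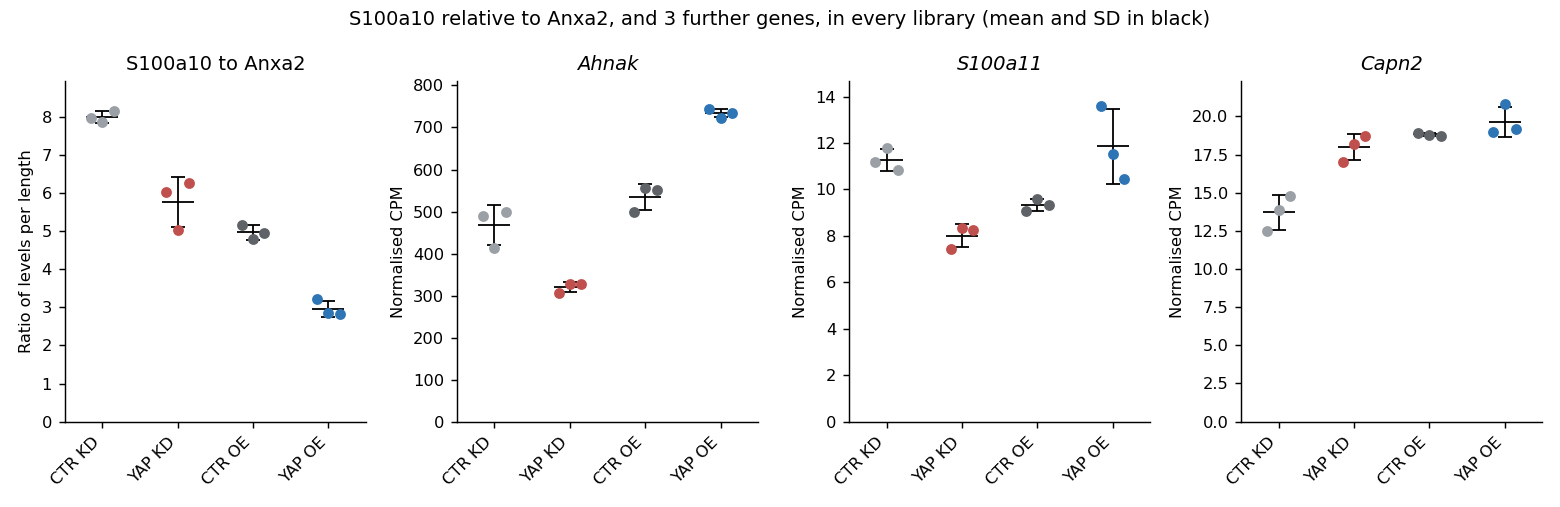
The ratio of S100a10 to Anxa2 per length, and normalised CPM of Ahnak, S100a11 and Capn2, in the 12 libraries, with the mean and SD of each group in black. The ratio declines from 8.0 in CTR KD to 2.96 in YAP OE, Ahnak and S100a11 are below their controls in YAP KD and above them in YAP OE, and Capn2 is low in CTR KD alone.

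Genes in a further list of binding partners of annexins and S100A6, which does not hold S100a11 and Ahnak, were not called. Of 9 such genes, 6 passed the filter, including Pdcd6 (ALG-2), Sri (sorcin), Cacybp and Sugt1, and 0 were called in any comparison by edgeR, DESeq2 or limma-voom (2 at an unadjusted p under 0.05 after YAP KD, 2 for the difference of changes, 0 after YAP OE and 0 between controls), with medians of the log2 fold change of 0.017 after YAP KD and -0.019 after YAP OE. Of 11 genes of plasma membrane repair, all 11 passed it. After YAP KD 2 of these were called higher, Capn2 and Capns1, the large and small subunits of m-calpain, and 1 lower, Myof, which encodes the ferlin myoferlin, and after YAP OE 0 were called by edgeR, DESeq2 or limma-voom (1 at an unadjusted p under 0.05). Capn2 was at 12.5, 13.9 and 14.8 CPM in CTR KD, at 17.0, 18.2 and 18.7 CPM in YAP KD, at 18.9, 18.8 and 18.7 CPM in CTR OE and at 19.0, 20.8 and 19.2 CPM in YAP OE. It was low in CTR KD alone, as S100a6 was. The log2 fold changes after YAP KD were 0.39 (SE 0.0695, adjusted p = 0.0117) for Capn2, 0.23 (SE 0.0463, adjusted p = 0.0217) for Capns1 and -0.25 (SE 0.0566, adjusted p = 0.0316) for Myof. Capn2 was also higher in CTR OE than in CTR KD, by 0.45 (SE 0.0611, adjusted p = 0.00156). Without 1 library in turn, the KD calls were kept in 4 of 6 fits for Capn2 and in 2 of 6 for Capns1 and for Myof.

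The genes whose pattern over the 12 libraries was most like that of Anxa2 and of Anxa3 were found by the root mean square difference of log2(CPM + 0.5), each gene centred on the mean of its 6 libraries per experiment, among 12394 genes. The 5 nearest to Anxa2 were Igf2, 3830417A13Rik, Ptges, Pmp22 and Loxl2, at differences from 0.121 to 0.152, against a median of 0.344 over all genes. Igf2, the insulin-like growth factor 2, had log2 fold changes of 0.45 after YAP KD and 0.77 after YAP OE. In the same order they were 0.49 and 1.22 for 3830417A13Rik, 0.35 and 0.57 for Pmp22, and 0.33 and 0.55 for Loxl2. Ptges had 0.077 and 0.95, and its KD groups overlapped. These 5 genes were not among the 17 called higher in both experiments. Anxa3 was the gene at rank 10 for Anxa2 (0.166), and Anxa5 was at rank 114 (0.261) and Anxa1 at rank 316 (0.286). A gene without any change would lie at 0.333 from Anxa2, so these ranks overstate the likeness of Anxa5 and Anxa1. The other annexin members ranked from 1580 (Anxa4) to 10159 (Anxa11), and S100a6 was at rank 912. The 5 nearest to Anxa3 were Rnf128, Krt8, Hmga2, Plekha2 and Ak4, at differences from 0.0865 to 0.0904, against a median of 0.209. Krt8, a keratin of simple epithelia, had log2 fold changes of 0.37 and 0.36. They were 0.24 and 0.35 for Rnf128, 0.44 and 0.31 for Hmga2, 0.32 and 0.37 for Plekha2, and 0.37 and 0.29 for Ak4. Of these 5, only Krt8 and Ak4 were called higher in both experiments. Anxa5 was at rank 29 for Anxa3 (0.12), Anxa1 at rank 251 (0.156) and Anxa2 at rank 497 (0.166), where a gene without any change would lie at 0.192. The other annexin members ranked from 1086 (Anxa6) to 10228 (Anxa11) for Anxa3, and S100a6 was at rank 2442. S100a10 was at rank 1735 for Anxa2 and 1513 for Anxa3. The 12 libraries are shared by all genes, and the likeness is a description.

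**Figure D5:**
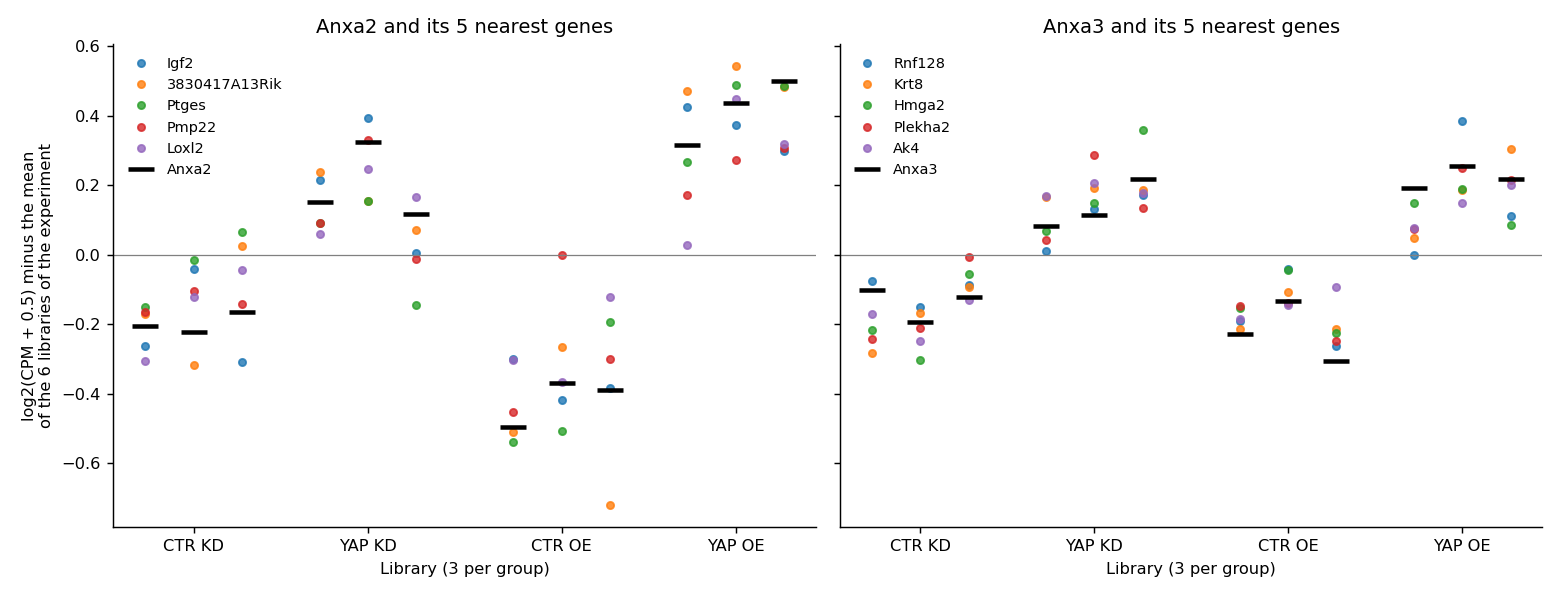
Log2(CPM + 0.5) minus the mean of the 6 libraries of the experiment (vertical axis) for Anxa2, left, and Anxa3, right (black bars), with the 5 nearest genes of each as coloured points over the 12 libraries. The target bars are below 0 in all control libraries and above 0 in all YAP libraries of both experiments.

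The mean transcript length that RSEM assigned to a gene, which moves when isoforms are used differently, varied between libraries only for Anxa6 and Anxa7 among the members, the 2 members with more than 1 annotated transcript. In CTR KD and YAP KD, it was 2654.0 ± 0.315 and 2654.3 ± 1.37 bases for Anxa6 and 2859.2 ± 1.13 and 2858.6 ± 1.08 bases for Anxa7. In CTR OE and YAP OE, it was 2654.0 ± 1.32 and 2654.1 ± 0.384 bases for Anxa6 and 2859.5 ± 0.567 and 2860.3 ± 2.01 bases for Anxa7. The groups differed by less than 1 base, and the adjusted p from limma was 1 for both genes in both experiments. Over all genes with a varying length, 0 of 3837 were called after YAP KD (229 at an unadjusted p under 0.05) and 1 of 3889 after YAP OE (221 at an unadjusted p under 0.05). The gene called after YAP OE was Yap1 itself (log2 length change 0.0076, adjusted p = 0.00632 from limma), whose counts include the plasmid's coding sequence. Among the 6 fits without 1 library, the call of Yap1 was kept only without CTR OE replicate 3 (adjusted p from 0.048 to 0.162 from limma). It was also lost with effective length and with the replicate block.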

How the data were processed

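Per the labels and the study's methods, the authors mapped reads of the 12 libraries to mm10 (GRCm38) with STAR and quantified curated RefSeq genes with RSEM. Versions and a strand setting are not given in the sources used here, so overlapping transcripts cannot be told apart by strand. The deposited values are expected counts (not normalized), TPM and FPKM per gene, and the lengths. All 10 members had whole expected counts in every library, which shows no reads split in fractions with other genes. FPKM was not used, and deposited TPM served only an alternative fit on log2(TPM + 0.1).

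The members, gene lists and tests were chosen with earlier results of these data known. Expected counts were rounded and fitted with edgeR 4.0.16 in R 4.3.3 (filterByExpr, TMM factors, two-sided quasi-likelihood F test, Benjamini-Hochberg adjustment over all genes kept, call at an adjusted p under 0.05). YAP KD and YAP OE were compared with their controls over 6 libraries each. CTR OE against CTR KD, and the YAP OE change minus the YAP KD change, came from 1 fit of 4 groups over 12 libraries. The SE is the absolute log2 fold change divided by the square root of F. Normalised CPM uses TMM factors over 12 libraries. Transcript length (log2) was tested with limma 3.58.1 where the mean expected count reached 50. DESeq2 1.42.0, other scalings, filters and fits without each library were alternatives. No pair of replicates was alike within counting error (chi-square over its degrees of freedom between 3.54 and 25.7), so every library counted as 1 sample. With 3 libraries a group, precision is limited by the spread between them: on simulated data for the KD fit (14587 genes), 66.0% of genes changed 1.25-fold, 98.0% of those changed 1.5-fold and 52.0% of those changed 0.8-fold were called. The simulation changed 50 genes per fold. It gave every gene the same spread and no deviation shared with other genes of a library. These rates are therefore not the power of the real fit. Named genes are Yap1, the 10 members, genes of the fixed lists and the 5 genes nearest to Anxa2 and to Anxa3.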

Additional observations from a re-analysis of the deposited data

Results flagged for a closer look

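For 2 of the 8 members other than Anxa2 and Anxa3, which chose the set and are not tested, and for 8 genes of the related lists, the change after YAP OE minus the change after YAP KD passed the edgeR test (adjusted p under 0.05, as for 8.8% of 15049 genes). Of the genes tested per list, these 8 were 3 of 4 other S100 genes and 2 of 6 of the plasminogen system and Ahnak. The remaining calls were 3 of 11 genes of membrane repair. None came from 6 binding partners and 2 other annexins (0 and 0 called). On the log2 scale the difference was 0.27 for Anxa4 and -0.18 for Anxa6. It was 0.84 for S100a11, 0.84 for S100a1 and 0.66 for S100a13, 1.00 for Ahnak, 0.51 for Plaur and 0.36 for Myof. It was -0.33 for Capn2 and -0.26 for Capns1. The value is positive for a gene that fell after YAP KD and rose after YAP OE, as Ahnak and S100a11 did, and negative for one that rose after YAP KD alone, as Anxa6, Capn2 and Capns1 did. Its cause was not tested. No outlying library was looked for in groups of 3.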

How the results depend on the processing

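The counts of calls over all genes, 802 after YAP KD, 316 after YAP OE, 200 between controls and 1325 for the difference of changes, fell to 47, 68, 12 and 123 with limma-trend on log2(TPM + 0.1), and members called fell from 4, 2, 5 and 3 to 0, 1, 2 and 0. One fit over all 12 libraries gave 1261 calls after YAP KD, and no filter beyond 1 count gave 556 after YAP OE. Same-numbered replicates did not deviate together (correlations from -0.418 to 0.0909, 0 of 6 pairs over 0.1), so the numbers do not pair the libraries. Some differently numbered KD libraries did, with correlations from -0.171 to 0.447, the highest for CTR KD replicate 2 with YAP KD replicate 1. No fit took account of that. With the replicate block the calls were 193 after YAP KD, 280 after YAP OE and 784 for the difference, with 1, 2 and 1 members called. Without 1 library in turn, calls ranged from 298 to 1019 after YAP KD, 154 to 327 after YAP OE, 85 to 217 between controls and 943 to 1490 for the difference, and members called from 1 to 3, 2 to 2, 3 to 4 and 1 to 4. The KD count moved by over 1.5 times without CTR KD replicate 3 (298) and without each YAP KD library (306 to 369), the OE count without each CTR OE library (154 to 181), and the control count without CTR KD replicate 3 (91) and without each CTR OE library (85 to 108). Length calls ranged from 0 to 2 after YAP KD and 0 to 3 after YAP OE (1 as reported), and were 0 for YAP OE with effective length and with the replicate block.

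Signs changed only for values near 0, none of them called. After YAP OE, Anxa6 (-0.0048) was 0.00049 with upper-quartile factors, 0.0017 with total counts and 0.018 with TPM, and -0.031 to 0.013 without 1 library. Anxa7 (0.00029) was -0.0027 with RLE factors and with DESeq2, -0.0018 with no filter, -0.00053 at 1 CPM in 3 libraries, -0.00051 with limma-voom, -0.0029 with the length offset, -0.0012 with the replicate block, -0.00071 over 12 libraries and -0.042 to 0.035 without 1 library. Without 1 library, Anxa1 ranged from -0.0074 to 0.13 and S100a6 from -0.048 to 0.17 after YAP OE. Between controls Anxa5 ranged from -0.095 to 0.0080 and Anxa11 from -0.081 to 0.022, with 0.0038 on TPM. The difference for Anxa7 ranged from -0.0094 to 0.062. The log2 length change turned to -0.0024 for Anxa6 after YAP KD, and to -0.00059 for Anxa6 and -0.00019 for Anxa7 after YAP OE, with effective length. Without 1 library it ranged from -7.71e-05 to 0.00062 (Anxa6) and -0.00050 to 1.34e-05 (Anxa7) after YAP KD, and from -0.00028 to 0.00044 (Anxa6) and -8.08e-05 to 0.00093 (Anxa7) after YAP OE.

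The KD call of S100a6 held under 10 of 11 other settings and that of Anxa6 under 8. The call of Anxa7 between controls was lost with RLE factors (adjusted p = 0.0512) and no filter (0.0591). The difference for S100a6 became called with DESeq2 (adjusted p = 0.046) and with no filter (0.0458).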
